A study of Mus musculus with 5 samples.

Results

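The guanylate-binding proteins (GBPs) are large GTPases of the dynamin superfamily that interferon-gamma induces strongly in many cell types. Inside a cell they assemble on the vacuoles or surfaces of intracellular microbes, help to break these open and feed the inflammasome pathway, and they are often read as a sign of interferon signaling in inflamed or tumor-bearing brain. The 9 mouse Gbp genes described here, chosen by symbol, were Gbp2, Gbp3, Gbp4, Gbp5, Gbp6, Gbp7, Gbp8, Gbp9 and Gbp10. All 9 were found among the 55573 genes of the count tables. Of these, 4 (Gbp2, Gbp3, Gbp5, Gbp7) lie in a cluster on chromosome 3 of GRCm38 and 5 (Gbp4, Gbp6, Gbp8, Gbp9, Gbp10) in a cluster on chromosome 5.

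RNA was taken from the right brain hemisphere of C57BL/6 female mice, 7 to 8 weeks old at inoculation, which carried a syngeneic glioma grown from the GL261 cell line. The line had been transduced with a luciferase/mKate2 vector and was injected into the right caudate nucleus-putamen. Only mice above a bioluminescence minimum entered the study, and the paper states that those sequenced had tumors similar in size by bioluminescence. Vehicle mice (3 libraries) received inVivoPure dilution buffer, and UMBO mice (2 libraries) received ultrasound-mediated blood-brain barrier opening, in which pulsed ultrasound is applied after an intravenous injection of microbubbles. Sessions were on days 21 and 24, and tissue was taken 24 h after the last session. Every mouse of both groups carried the tumor, so no tumor-free brain enters the comparison. Each library is bulk RNA of a whole hemisphere, in which fewer cells of a type and less RNA per cell cannot be told apart.

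Total counts lay between 59736771 and 86164159 per library, and the 9 Gbp genes together took 8553 to 60851 of them. The smallest single Gbp count was 150, for Gbp8 in vehicle 1, with an exact 95% Poisson interval of 127 to 176 that covers counting error only, which was narrow beside the spread between libraries. UMBO 2 stood apart from the other libraries on the first principal component of all genes, at 133.7, against 17.0 in vehicle 2, -14.1 in UMBO 1, -68.2 in vehicle 3 and -68.4 in vehicle 1. Markers of brain cells were present in every library, with the summed level of 8 neuronal genes between 2694 and 8018 CPM and of 8 oligodendrocyte genes between 5536 and 6406 CPM (read counts scaled to library size after TMM normalization, which corrects for library makeup).

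The promoters of the chromosome 3 members are shown first, because interferon acts on these genes through short DNA elements near their start sites. The gamma-activated site (GAS) serves the response to interferon-gamma, and the interferon-stimulated response element (ISRE) is bound by IRF proteins and their complexes. RefSeq windows on GRCm38.p6, from 250 bases before to 50 after a start site, were found for Gbp2, Gbp3, Gbp5 and Gbp7 (4 of 9), on the forward strand, and not for Gbp4, Gbp6, Gbp8, Gbp9 and Gbp10. They are printed 5′ to 3′ with every match to TTCNNNGAA (GAS) or to GAAANNGAA (an ISRE core, TTCNNTTTC on the other strand) in capitals. Gbp2 is shown at chr3:142620413-142620712, Gbp3 at chr3:142559794-142560093, Gbp5 at chr3:142496684-142496983 and Gbp7 at chr3:142530086-142530385.
Gbp2: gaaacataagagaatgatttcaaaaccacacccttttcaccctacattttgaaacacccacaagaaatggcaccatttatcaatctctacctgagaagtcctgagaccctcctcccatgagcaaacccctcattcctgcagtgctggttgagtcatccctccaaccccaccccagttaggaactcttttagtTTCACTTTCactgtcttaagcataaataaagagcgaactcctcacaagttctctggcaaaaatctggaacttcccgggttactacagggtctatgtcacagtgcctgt
Gbp3: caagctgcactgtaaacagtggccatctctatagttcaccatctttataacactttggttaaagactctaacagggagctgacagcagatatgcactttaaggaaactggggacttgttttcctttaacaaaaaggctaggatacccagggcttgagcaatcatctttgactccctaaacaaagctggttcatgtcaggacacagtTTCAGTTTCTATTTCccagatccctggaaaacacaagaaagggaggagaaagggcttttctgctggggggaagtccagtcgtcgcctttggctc
Gbp5: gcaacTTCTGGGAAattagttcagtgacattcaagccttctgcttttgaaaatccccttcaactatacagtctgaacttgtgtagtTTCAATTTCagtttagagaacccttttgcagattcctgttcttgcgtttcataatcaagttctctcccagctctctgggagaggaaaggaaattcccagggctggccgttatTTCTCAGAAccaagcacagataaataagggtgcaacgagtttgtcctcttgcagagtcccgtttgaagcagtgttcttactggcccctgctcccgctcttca
Gbp7: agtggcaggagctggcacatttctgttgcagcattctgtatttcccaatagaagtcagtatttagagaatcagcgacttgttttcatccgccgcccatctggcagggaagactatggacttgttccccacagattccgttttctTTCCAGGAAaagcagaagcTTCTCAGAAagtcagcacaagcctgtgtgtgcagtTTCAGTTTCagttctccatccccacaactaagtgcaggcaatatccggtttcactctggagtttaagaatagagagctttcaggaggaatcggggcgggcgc

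Each of these 4 windows held an ISRE core match. It began 58 bases before the start site in Gbp2, 52 in Gbp7 and 164 in Gbp5, and Gbp3 held 2 overlapping matches that began 44 and 38 bases before it. A GAS match was found in Gbp5 (2 matches, 245 and 52 bases before the start) and in Gbp7 (2 matches, 106 and 87 bases before it), but not in the Gbp2 and Gbp3 windows. No GAS match overlapped an ISRE core match. A second Gbp3 window, from another start site, held neither. Of all 32851 promoter windows of this length in the RefSeq table, 8.30% held the GAS letters, 8.56% the ISRE core letters and 1.07% both. A match is a description of letters, and binding was not measured.

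All 9 genes were expressed in every library, and the same pair of libraries, 1 from each group, was highest for every one of them. UMBO 2 was highest and vehicle 2 second in all 9 genes, and vehicle 1 was lowest in all 9. In 8 of the 9 genes the full order was UMBO 2, vehicle 2, UMBO 1, vehicle 3, vehicle 1. This was also the library order on the first principal component of all genes, which carried 78.7% of the variance. The order is thus not particular to the Gbp genes, and the share of all genes with it was not counted. The exception among the 9 was Gbp8, in which vehicle 3 lay slightly above UMBO 1. Because vehicle 2 lay above UMBO 1 throughout, the groups overlapped in each gene.

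Gbp2 (chromosome 3, 142620602 to 142638008, forward strand), a prenylated GBP that is recruited to pathogen vacuoles, had the highest level. It was at 33.5, 209 and 47.3 CPM in vehicle replicates 1 to 3 and at 72.1 and 381 CPM in UMBO replicates 1 and 2. The group means were 96.8 ± 97.9 CPM (SD, n = 3) with vehicle and 226 ± 218 CPM (SD, n = 2) with UMBO, so that the SD was about as large as the mean in both groups. Its log2 fold change, UMBO over vehicle, was 1.23 (standard error, SE, 0.972, 95% interval -1.15 to 3.61). Gbp2 also varied most among the 9, with UMBO 2 11.3-fold above vehicle 1. Within the vehicle group alone, vehicle 2 was 6.25-fold above vehicle 1.

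Gbp3 (142560026 to 142573209 on the same chromosome) was at 21.1, 88.8 and 30.9 CPM in the vehicle libraries and at 46.1 and 161 CPM with UMBO. Gbp5 (142493978 to 142522344), known for its part in activating the NLRP3 inflammasome, was at 10.4, 45.5 and 16.8 CPM with vehicle and at 21.9 and 66.4 CPM with UMBO. Gbp7 (142530342 to 142550149), which has been linked to assembly of the phagocyte NADPH oxidase, was at 15.1, 51.2 and 22.9 CPM with vehicle and at 30.6 and 102 CPM with UMBO. In each of the 3 genes vehicle 2 lay closer to UMBO 2 than to vehicle 1 on the log scale. The log2 fold change was 1.14 for Gbp3 (SE 0.745), 0.87 for Gbp5 (SE 0.718) and 1.16 for Gbp7 (SE 0.661). The interval of Gbp7, -0.46 to 2.78, came among the 4 genes of this cluster closest to leaving out 0.

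On chromosome 5, Gbp4 (105115767 to 105139586, reverse strand), reported to bind IRF7, spread most, with 14.5, 70.7 and 21.0 CPM in the vehicle libraries and 31.6 and 132 CPM with UMBO. Gbp8 (105014150 to 105139540) was at 2.01, 11.9 and 4.56 CPM with vehicle and at 4.46 and 17.7 CPM with UMBO. Gbp6 (105270702 to 105293698) was at 4.92, 17.1 and 7.54 CPM with vehicle and at 8.91 and 28.4 CPM with UMBO. In all 3 genes vehicle 2 lay above UMBO 1. The log2 fold change was 1.21 for Gbp4 (SE 0.833), 0.85 for Gbp8 (SE 0.846) and 0.92 for Gbp6 (SE 0.663).

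Gbp9 and Gbp10 varied least. Gbp9 (105077630 to 105139539) was at 9.72, 23.6 and 13.7 CPM with vehicle and at 16.9 and 30.9 CPM with UMBO, a spread of 3.18-fold between the lowest and highest library. Gbp10 (105215699 to 105239533) was at 3.12, 8.34 and 3.38 CPM with vehicle and at 4.52 and 9.71 CPM with UMBO, a spread of 3.12-fold. Both kept the library order of the other genes, in a smaller range. The log2 fold change was 0.61 for Gbp9 (SE 0.436, 95% interval -0.46 to 1.68) and 0.52 for Gbp10 (SE 0.558, 95% interval -0.84 to 1.89).

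**Figure D1:**
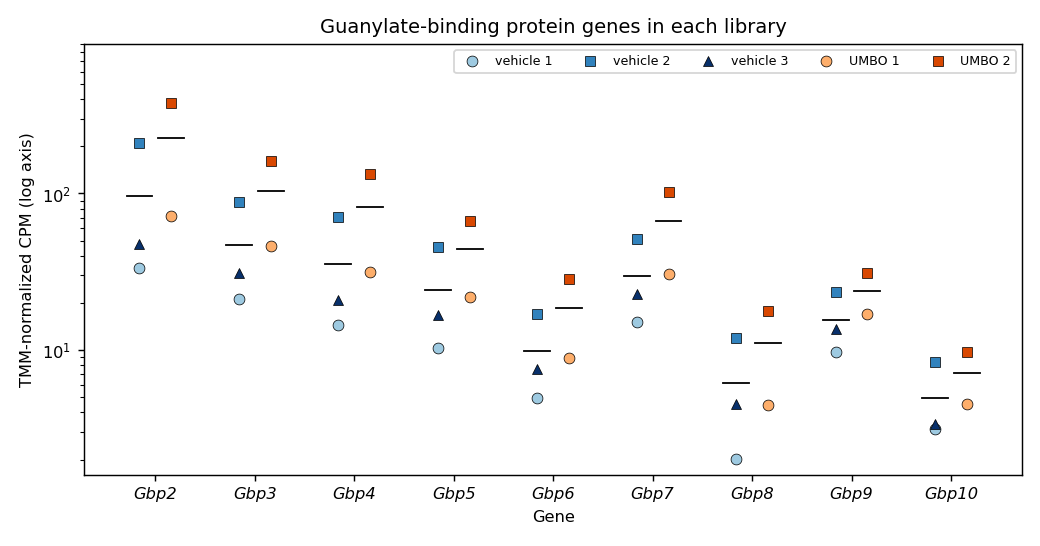
TMM-normalized CPM (log axis) of the 9 Gbp genes in each library, with vehicle on the left in blue, UMBO on the right in orange and group means as bars. In every gene vehicle 2 lies above UMBO 1, so the groups overlap.

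The question the comparison addresses is whether opening the blood-brain barrier altered gene expression in the tumor-bearing hemisphere. For the Gbp genes, all 9 means were higher with UMBO, but no difference exceeded the spread between libraries. The adjusted p of edgeR's quasi-likelihood test, over the 23592 genes tested, lay between 0.497 and 0.619, and the 95% interval of the log2 fold change included 0 in all 9. Over all genes tested 0% passed an adjusted p of 0.05 in edgeR, with 1738 at an unadjusted p under 0.05 and 42 called by DESeq2. At an unadjusted p under 0.05, 0 of the 9 were higher, against 5.3% of all genes tested. By DESeq2's Wald test 0 of the 9 had an adjusted p under 0.05, and the smallest unadjusted p was 0.0751, for Gbp7. The count of members with both UMBO libraries above every vehicle library was 0 of 9, against 11.5% of all genes tested. Across the 9 genes the log2 fold change had a median of 0.92, beside 0.01 for all genes tested. The interval of Gbp2 ran up to 3.61, so a large difference lay inside it. An exact permutation of the group labels (2-sided, 10 groupings, smallest possible p 0.1) gave each gene p = 0.4 or 0.5.

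The direction depended on UMBO 2. Without it the Gbp median was -0.14 and 7 of the 9 had a negative value, from -0.025 for Gbp3 to -0.46 for Gbp8, whereas Gbp7 and Gbp9 were at 0.04 and 0.11. Without vehicle 2 the median was 1.79, and 7 of the 9 were higher at an unadjusted p under 0.05 in edgeR, against 9.36% of all genes in that fit, with an adjusted p of 0.420 for each of the 9. Without UMBO 1 the median was 1.50 and 4 of the 9 were higher at an unadjusted p under 0.05, a fit in which 21.4% of all genes were higher and 10165 of 24814 genes passed that p in either direction. In the fits that left out 1 UMBO library, the lone UMBO library was assumed to vary like the vehicle libraries. Without vehicle 1 and without vehicle 3 the medians were 0.60 and 0.76, with 0 of the 9 higher at an unadjusted p under 0.05, against 0.838% and 0.945% of all genes.

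**Figure D2:**
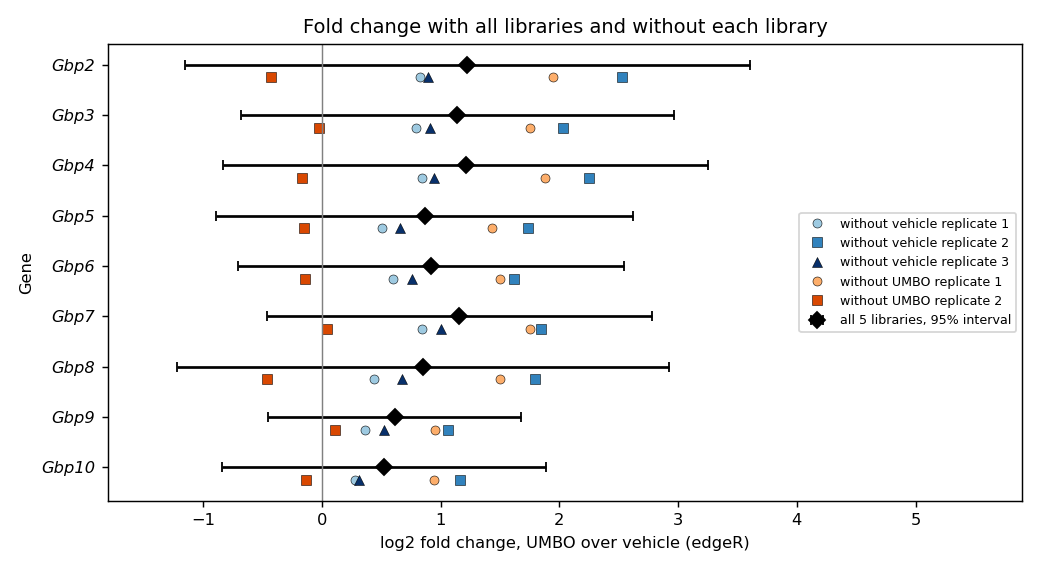
log2 fold change of each Gbp gene, UMBO over vehicle, from edgeR, with all 5 libraries (diamonds, 95% interval as bars) and without 1 library each (smaller symbols below). Without UMBO 2 the values lie between -0.46 and 0.11, and without vehicle 2 between 1.06 and 2.53.

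Levels of different genes were compared per length, as CPM per kb of exonic sequence. Gbp2 was highest in every library, at 13.3 CPM per kb in vehicle 1 and 151 CPM per kb in UMBO 2. Gbp3 followed, at 6.46 to 49.2 CPM per kb, and lay below Gbp2 and above Gbp7 in all 5 libraries. Gbp2 exceeded Gbp3 by 1.99-fold to 3.07-fold, and Gbp3 exceeded Gbp7 by 2.32-fold to 2.98-fold. Gbp7 (2.68 to 18.2 CPM per kb) and Gbp4 (1.94 to 17.7 CPM per kb) did not keep a fixed order, since Gbp7 was higher in 4 of the 5 libraries. Gbp5 (1.56 to 10.0 CPM per kb) lay below Gbp4 in all 5, but its order with Gbp9 (1.88 to 5.98 CPM per kb) changed, with Gbp5 higher in 3 of the 5. Gbp8 and Gbp6, at 0.583 to 5.15 and 0.827 to 4.77 CPM per kb, also changed places, with Gbp8 higher in 3 of 5. Gbp10 was lowest on the mean, at 0.805 to 2.51 CPM per kb.

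The makeup of the family differed between libraries as well as its total. The summed level of the 9 genes was 30.1, 149 and 43.8 CPM per kb in the vehicle libraries and 63.0 and 265 CPM per kb with UMBO. Gbp2 took 44.3% of it in vehicle 1, 42.9% in vehicle 3 and 45.5% in UMBO 1. In the libraries with the highest sums it took 55.9% (vehicle 2) and 57.1% (UMBO 2). The share of Gbp9 went the other way, at 6.25% in vehicle 1, 6.04% in vehicle 3 and 5.20% in UMBO 1, but 3.06% in vehicle 2 and 2.26% in UMBO 2. Gbp4 kept a nearly fixed share of 6.34% to 6.69% in all 5 libraries.

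**Figure D3:**
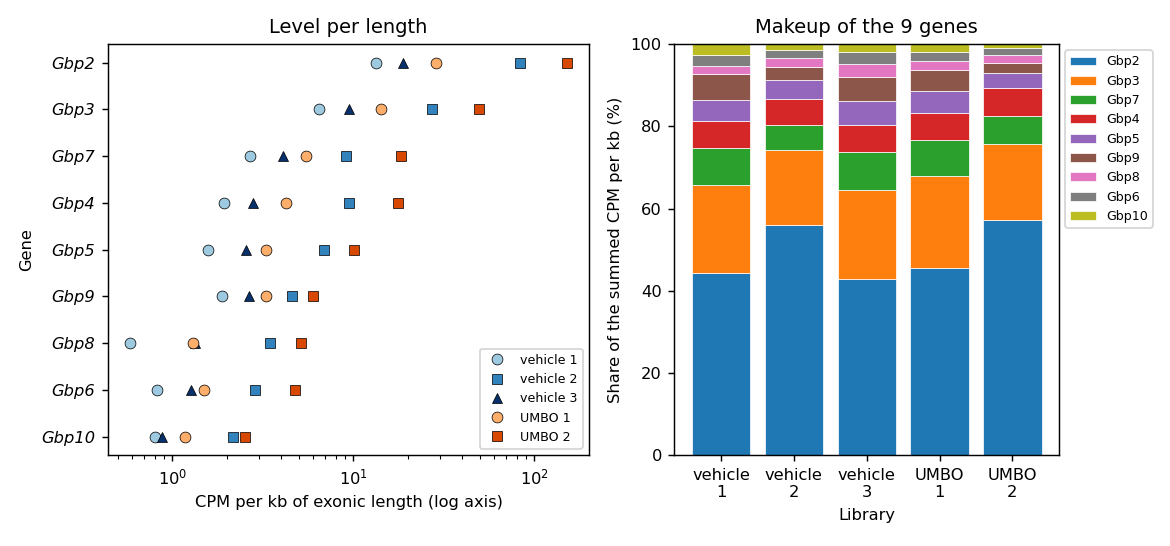
Left, CPM per kb of exonic length (log axis) of each Gbp gene, with 1 point per library, and right, the share of each gene in the summed CPM per kb of the 9 genes, in percent, for each library. Gbp2 took 42.9% to 45.5% in 3 libraries and 55.9% and 57.1% in vehicle 2 and UMBO 2.

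Gbp genes arose by repeated duplication, so it was checked how far their reads can be assigned. Of the 100-base windows in the GENCODE M21 transcripts of Gbp2, 0% occurred in a transcript of another gene, and for Gbp3 and Gbp5 the share was 0.694% and 0.142%. It was 1.64% for Gbp4, 1.65% for Gbp9, 4.39% for Gbp8 and 10.0% for Gbp7, the last mostly with the processed pseudogene Gm43802, which is annotated inside it and had 0 counts in every library. Gbp10 and Gbp6 were the exceptions, with 73.5% and 64.5% of their windows in another gene. Most of these lie in Gm43302, a gene model that uses exons of both and had 0 or 1 counts per library. How reads on such shared exons were counted is not stated, so the levels of Gbp6 and Gbp10 are uncertain. The log2 fold change of Gbp6, Gbp10 and Gm43302 counted together, a choice made after seeing the data, was 0.80 (SE 0.618). This fit only added the counts given for each gene, so it cannot show how reads on shared exons were treated. In the annotation the first exons of Gbp8, Gbp9 and Gbp4 also share 60 to 61 bases, at most 1.77% of the exonic length of any of them. Gbp2 overlaps the microRNA gene Mir6381 on the opposite strand by 24 bases, and Mir6381 had 0 to 2 counts per library.

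Another pair of Gbp genes of the same clusters showed the same library order at a low level. Gbp2b (chromosome 3, 142594847 to 142619179), next to Gbp2, was at 0.588, 3.87 and 0.591 CPM with vehicle and at 1.21 and 6.66 CPM with UMBO. Its RefSeq promoter window held 1 ISRE core match, 136 bases before the start, and no GAS match. Gbp11 (chromosome 5, 105323042 to 105346472), annotated as a polymorphic pseudogene, was at 1.62, 6.47 and 2.26 CPM with vehicle and at 2.59 and 9.96 CPM with UMBO. In both genes, too, vehicle 2 lay above UMBO 1.

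The genes that carry the interferon signal were examined from ligand to target. Ifng, which encodes interferon-gamma, was near the limit of detection with 6, 30 and 23 counts in the vehicle libraries and 16 and 42 with UMBO, or 0.0802, 0.445, 0.272, 0.187 and 0.641 CPM. UMBO 2 and vehicle 2 were again highest and vehicle 1 lowest, while vehicle 3 lay above UMBO 1, unlike in 8 of the Gbp genes. The difference was 0.63 on the log2 scale (SE 0.812). Ifnb1, which encodes interferon-beta, had 0 to 3 counts and was not tested. Of the 8 tested ligands, receptors and kinases, 5 had higher and 3 lower values with UMBO (median on the log2 scale 0.27). A single gene, with a higher value, had an unadjusted p under 0.05, against 5.3% of all genes tested that were higher at that p. This was Ifngr1, the ligand-binding chain of the interferon-gamma receptor, at 17.8, 25.4 and 20.3 CPM with vehicle and 26.2 and 40.4 CPM with UMBO (log2 fold change 0.65, standard error 0.258). The next smallest p values belonged to Ifnar2 and Ifngr2, receptor chains for type I interferon and interferon-gamma, at 0.60 (SE 0.273) and 0.32 (SE 0.164) on the log2 scale. None of these 3 receptors varied as widely between libraries as the Gbp genes. In 3 of the 8 tested genes, Ifngr1 and Ifngr2 among them, the lower UMBO value exceeded the highest vehicle value. The groups were separated in this way in 11.5% of all genes tested.

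The transcription factors and feedback genes downstream came next. Irf1, an interferon-induced factor that itself drives Gbp genes, was at 15.9, 72.3 and 20.2 CPM with vehicle and at 32.9 and 159 CPM with UMBO. It had UMBO 2 and vehicle 2 highest, then UMBO 1, the order of most Gbp genes. On the log2 scale Irf1 differed by 1.41 (SE 0.86). All 10 genes of this list had higher values with UMBO (median on the log2 scale 1.45), but an unadjusted p under 0.05 was reached by 0 of 10. The smallest p values were those of Irf8, a myeloid factor (log2 fold change 1.50), Irf7, of the type I interferon response (1.68), and Socs3, a feedback inhibitor (1.64).

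**Figure D4:**
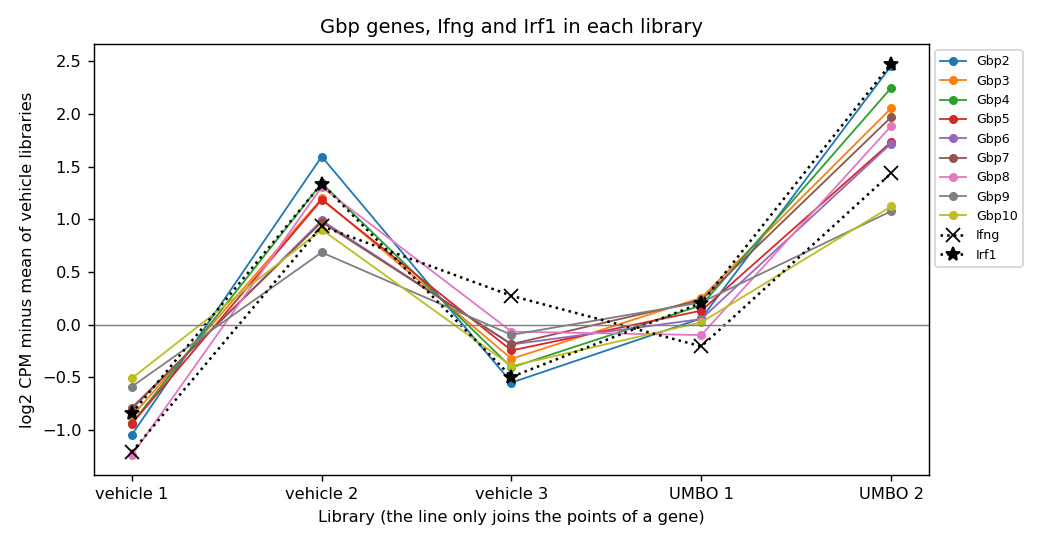
log2 CPM minus the mean of the vehicle libraries for the 9 Gbp genes (colored lines) and for Ifng and Irf1 (dotted lines), in each library, with lines that only join the points of a gene. All Gbp genes peak in UMBO 2 and vehicle 2, and UMBO 1 lies between -0.10 and 0.25.

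Genes that act beside or after GBPs were grouped by function. A list of GTPases combined the immunity-related GTPases, which work with GBPs at pathogen vacuoles, with other interferon-induced large GTPases. Its genes had higher values with UMBO in 10 of 10 (median on the log2 scale 1.36). Of these, 2 had an unadjusted p under 0.05, Mx1 and Mx2, antiviral GTPases of type I interferon, at 1.78 (SE 0.65) and 1.61 (SE 0.624) on the log2 scale, where the share of all genes higher at that p was 5.3%. Vehicle 2 lay above UMBO 1 in both. In 0 of the 10 did both UMBO libraries lie above every vehicle library, against 11.5% of all genes tested. Irgm1, a regulator of the immunity-related GTPases, had a value of 1.39 (SE 0.819). Among inflammasome and pyroptosis genes 8 of 8 values were higher, with a median of 1.43. In that list only Pycard, the inflammasome adaptor, had an unadjusted p under 0.05, at 1.71 on the log2 scale (SE 0.613), and in 0 of 8 did the groups not overlap. Gsdmd, the pore-forming gasdermin, and Aim2, a DNA sensor, had values of 1.63 and 1.04.

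The autophagy conjugation genes, needed to place GBPs on vacuoles, had a median of 0.02 on the log2 scale, with 6 higher, 3 lower and 0 of 9 under an unadjusted p of 0.05. The smallest p values there belonged to Gabarap (0.57), Gabarapl1 (-0.35) and Atg5 (0.26). The prenylation enzymes, which attach the lipid that anchors some GBPs, had a median of 0.15 with 0 of 5 under that p, led by Fnta (0.28), Icmt (-0.30) and Rce1 (0.38). The atlastins and other dynamin-fold GTPases, distant relatives of GBPs that shape membranes, had 8 lower and 1 higher value with a median of -0.34, and 0 of 9 under that p. Dnm3, Atl2 and Opa1 had the smallest p values, at -0.92, -0.34 and -0.58 on the log2 scale. The smallest adjusted p of any gene tested in edgeR was 0.497.

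The 8 other genes whose values across the 5 libraries lay nearest to the mean Gbp profile were listed by the root mean square difference of centred log2 CPM, with no test. They were Irgm2 (0.043), an immunity-related GTPase, B2m (0.109), the light chain of MHC class I, Gbp11 (0.112), Gm6177 (0.114), Ciita (0.114), the transactivator of MHC class II, Gm11759 (0.117), 2310031A07Rik (0.118) and Nlrc5 (0.125), the transactivator of MHC class I. By the same measure Gbp5 (0.056), Gbp6 (0.087), Gbp3 (0.107) and Gbp7 (0.111) lay close to the mean profile and Gbp9 (0.391) and Gbp2 (0.370) farthest from it. In nearness among all genes tested, Gbp9 ranked 1006, Gbp2 821 and Gbp10 536, so many other genes lay nearer than these members. The members themselves entered the mean profile. Irgm2 was at 24.8, 108 and 39.2 CPM with vehicle and at 51.5 and 162 CPM with UMBO. Gm6177, Gm11759 and 2310031A07Rik were under 0.5 CPM in every library, so their nearness rests on few counts.

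Markers of cell types that can express GBPs also differed between the libraries. For 8 markers of monocytes and macrophages the summed level was 25.7 to 94.6 CPM in the vehicle libraries and 85.6 and 398 CPM in the UMBO libraries. The library order was that of most Gbp genes, and 8 of 8 means were higher with UMBO, 2 of them with an unadjusted p under 0.05 (5.3% over all genes). For 7 markers of natural killer cells the sum was 2.50 to 8.65 CPM with vehicle and 5.32 and 33.4 CPM with UMBO, in the same order, with 7 of 7 means higher and 1 under that p. For 8 markers of T cells the order was not shared, with 18.5 to 29.8 CPM in the vehicle libraries, 10.6 CPM in UMBO 1 and 40.6 CPM in UMBO 2. Cd4 made up most of that sum in vehicle 1, and was at 14.6, 14.0 and 7.31 CPM with vehicle and at 4.56 and 8.31 CPM with UMBO. Without Cd4, a choice made after seeing the data, the sum of the other 7 was 3.93, 15.8 and 11.2 CPM with vehicle and 6.03 and 32.3 CPM with UMBO, so that vehicle 1 was lowest and vehicle 3 lay above UMBO 1. No T cell marker of the 8 had an unadjusted p under 0.05.

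For 8 markers of microglia the sum was 324 to 456 CPM with vehicle and 610 and 733 CPM with UMBO. UMBO 1 thus lay above vehicle 2. Of the 8 markers, 5 had higher values at an unadjusted p under 0.05, against 5.3% of all genes tested. Endothelial markers, at 172 to 242 CPM with vehicle and 292 and 334 CPM with UMBO, also had UMBO 1 above vehicle 2, with 5 of 8 higher under that p. Proliferation genes, at 27.5 to 90.0 CPM with vehicle and 96.5 and 405 CPM with UMBO, had 8 of 8 higher at an unadjusted p under 0.05. Astrocyte markers had sums of 4059 to 5335 CPM with vehicle and 5987 and 3773 CPM with UMBO, with 1 of 8 higher under that p. Neuronal and oligodendrocyte markers had 0 of 8 each, with neuronal markers lowest in UMBO 2 at 2694 CPM. No marker was at 0 in any library, and none had an adjusted p under 0.05 in edgeR. By DESeq2's Wald test Fcrls of the microglia list (adjusted p 6.8e-10) and Gfap of the astrocyte list (0.00304) passed that threshold. The part of these cell types, or of tumor cells, in the Gbp values was not tested.

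**Figure D5:**
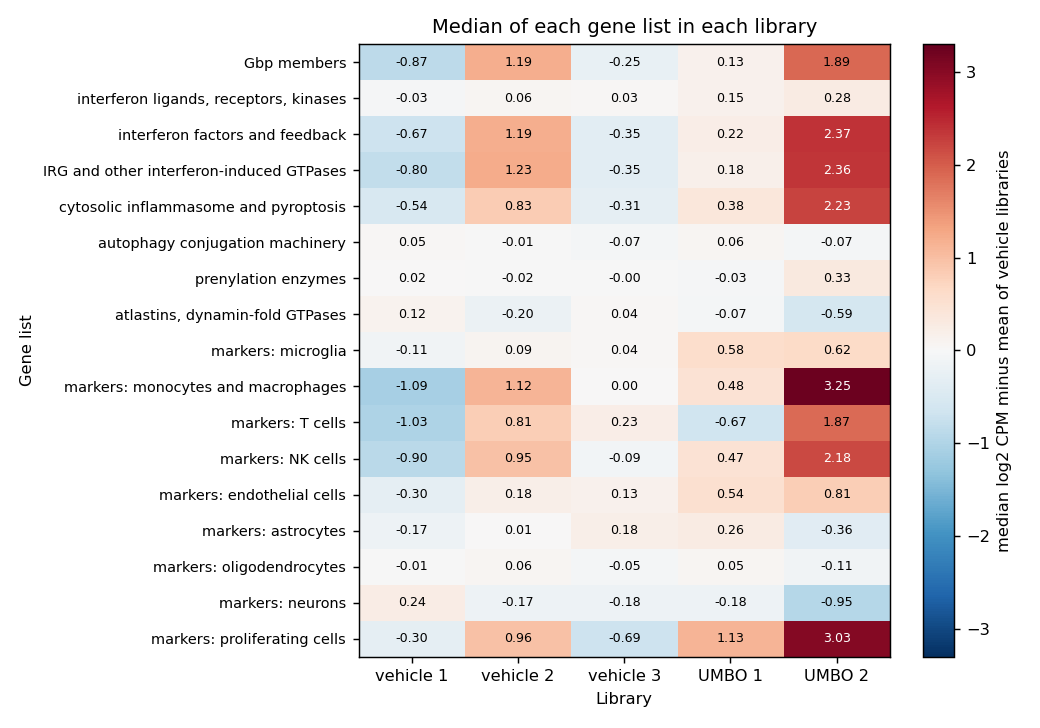
Median over each gene list of log2 CPM minus the mean of the vehicle libraries, in each library, with the value printed in each cell. The 9 Gbp genes were at 1.19 in vehicle 2, 0.13 in UMBO 1 and 1.89 in UMBO 2, where microglia markers were at 0.09, 0.58 and 0.62.

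In each library the median Gbp value was also set against the medians of the immune cell markers on the log2 scale. In UMBO 2 the Gbp genes lay 1.89 above their vehicle mean, and monocyte and macrophage markers 3.25 above theirs. In vehicle 2 the values were 1.19 and 1.12, and in UMBO 1 they were 0.13 and 0.48. In UMBO 2 these markers thus stood farther above their vehicle mean than the Gbp genes, and in vehicle 2 both stood at similar values. Against T cell markers the Gbp genes differed by 0.02 in UMBO 2, 0.38 in vehicle 2 and 0.80 in UMBO 1. Against natural killer cell markers they differed by -0.29 in UMBO 2, 0.23 in vehicle 2 and -0.33 in UMBO 1. Against microglia markers the difference was 1.26 in UMBO 2 and 1.10 in vehicle 2. It was -0.44 in UMBO 1, -0.76 in vehicle 1 and -0.29 in vehicle 3. In UMBO 1 microglia markers stood 0.58 above their vehicle mean, while Gbp genes stayed near theirs, at 0.13.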

How the data were processed

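The authors mapped reads of the SMARTer libraries to GRCm38 with STAR 2.7.2a and deposited raw read counts per Ensembl gene, 1 table per library, with no normalization. The annotation release, the strand setting and the treatment of reads on shared exons are not given in the sources used here. Groups and replicate numbers came from the sample titles. No library pair was a duplicate (chi-square per gene at least 58.1).

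Symbols, positions and exonic lengths came from GENCODE M21 (GRCm38), and promoters from RefSeq. Counts were filtered with filterByExpr, scaled by TMM and tested in R 4.3.3 by edgeR 4.0.16 (quasi-likelihood F test). P values of 23592 genes were adjusted by the Benjamini-Hochberg method, and the threshold was 0.05. Standard errors are the log2 fold change divided by the root of the F statistic. Log2 CPM used a prior count of 2. DESeq2 1.42.0 was an alternative, since the authors used it. The fit was tested on simulated counts.

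The members and gene lists were chosen with earlier results of these data known. Genes were named by rule: all Gbp genes, the 3 smallest p values per list with Ifng, Irf1 and a further gene whose result is not reported here, the 8 nearest profiles and overlapping genes. Alternatives covered normalization, filters, DESeq2, the replicate number as a block and each library left out.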

Additional observations from a re-analysis of the deposited data

How the results depend on the processing

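With other scalings (DESeq2's size factors, library size alone), no filter, a stricter filter and the Wald test of DESeq2, all 9 Gbp genes kept higher means with UMBO and an adjusted p above 0.05, with a median log2 fold change of 0.89 to 1.04. Library size alone moved the median of all genes from 0.01 to 0.13. Genes with an unadjusted p under 0.05 numbered 1738 as reported (1251 higher, 487 lower), 4100 with no filter (1 Gbp gene, 40435 genes tested, 7.31% of them higher) and 2639 with DESeq2, which called 42 genes at an adjusted p under 0.05 against 0 in edgeR. The cause was not tested. With each library left out in turn they ranged from 296 to 10165, genes with an adjusted p under 0.05 from 0 to 4543 (the latter without UMBO replicate 1), Gbp genes with an unadjusted p under 0.05 from 0 to 7, and the Gbp median from -0.14 to 1.79. Without vehicle replicate 3 the split of genes with an unadjusted p under 0.05 was 217 higher to 215 lower, without vehicle replicate 1 it was 194 to 102, and without vehicle replicate 2 it was 2164 to 510. The ranges of the log2 fold change were -0.43 to 2.53 for Gbp2, -0.025 to 2.03 for Gbp3, -0.17 to 2.25 for Gbp4, -0.15 to 1.73 for Gbp5, -0.14 to 1.62 for Gbp6, 0.04 to 1.84 for Gbp7, -0.46 to 1.79 for Gbp8, 0.11 to 1.06 for Gbp9 and -0.13 to 1.16 for Gbp10. Their negative ends are all from the fit without UMBO replicate 2.

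With the replicate block, edgeR called 2337 genes at an adjusted p under 0.05 and 6134 at an unadjusted p under 0.05, with 8 of the 9 Gbp genes higher under the latter (14.4% of all genes) and 6 (Gbp2, Gbp3, Gbp4, Gbp5, Gbp6, Gbp7) with an adjusted p between 0.00358 and 0.0321 and log2 fold changes of 0.79 to 1.01 (9.91% of all genes passed in either direction). Only 2 replicate numbers are shared, and their deviations from the group mean correlated at 0.453 and 0.76. The 2 UMBO libraries deviate from their mean by equal amounts in opposite directions. These correlations are therefore not separate and cannot show a pairing. The labels do not say that a number marks a shared litter or day. Replicate number 3 occurs only with vehicle, so the block fitted vehicle 3 exactly. The group difference and its p values in this fit thus rested on the other libraries, with little left to estimate the spread. Apart from this fit and those that left a library out, the p values measure the spread between 5 mice only.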
